A study of Mus musculus with 12 samples.

Results

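The broadest H3K9me3 regions of a table of mouse embryonic stem cells are described here. They were chosen by their width: each spans 8000 bp or more on chromosomes 1 to 19 other than 11 and 16. This gave 373 of the 68291 regions in the authors' deposited table, and a further 46 regions as wide lie on the chromosomes and scaffolds not used. The study compared the mark by chromatin immunoprecipitation and sequencing (ChIP-seq) in Tex19.1-/- knockout and Tex19.1+/- heterozygous cells, with 3 immunoprecipitated and 3 input libraries of knockout cells and the same numbers from heterozygous cells. Tex19.1 is found in mammals and is active in the germ line and in pluripotent cells. Both genotypes were derived from E14Tg2a, a male embryonic stem cell line of strain 129/Ola, and were grown to passages 12 to 20, with no treatment named. The heterozygous cells also carry 1 altered Tex19.1 allele, so they are not wild type. The labels do not say how many clones the libraries stand for. The genotype field contradicts the title in 6 of the 12 libraries, and the titles were followed.

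The table gives 1 comparison of the genotypes and holds 0 columns of single libraries, so no region can be shown library by library. For each region it lists the log2 fold change, the average log2 CPM (the measure of signal, with reads scaled by the size of each library), the p-value and its adjusted form, the FDR. Regions with a deposited FDR below 0.05 are referred to as called. Which genotype was the reference is not given in the sources used here, so changes are described as positive or negative and not as gain or loss in knockout cells. None of the broad regions lies at Tex19.1, and the table measures a histone mark and not RNA, so neither the genotype nor the cell type in the labels could be checked from them. The error printed after ± is a standard error derived from the deposited p-value and inherits every assumption of the authors' test. Width was not part of that test, but the widest regions also collect the most reads, and a given change is then easier to call.

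H3K9me3 is trimethylation of lysine 9 on histone H3, the mark of constitutive heterochromatin, to which HP1 proteins bind. In embryonic stem cells it is laid down largely by SETDB1, brought to retrotransposons, zinc finger gene clusters and imprinted loci by TRIM28 and KRAB zinc finger proteins. SUV39H1 and SUV39H2 add it at satellite repeats around centromeres. At imprinted loci ZFP57 recognises methylated TGCCGC, and with ZFP445 it keeps the mark on a single parental copy of a control region.

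Of the RefSeq promoter windows (GRCm38.p6, 250 bases before a transcript's start to 50 after it), 36 windows of 28 genes lay wholly inside 28 of the broad regions. The 6 windows below are shown because they belong to the regions that the results return to: the called region over Mest, the uncalled regions over the imprinted gene Nnat and the zinc finger gene Zfp629, and a pair of the regions with the strongest signal, over 9630028I04Rik and Gm32719. Each CpG, the dinucleotide that carries DNA methylation, is in capitals. They read 5′ to 3′ along the gene's own strand.
Mest, chr6:30733256-30733555, plus strand: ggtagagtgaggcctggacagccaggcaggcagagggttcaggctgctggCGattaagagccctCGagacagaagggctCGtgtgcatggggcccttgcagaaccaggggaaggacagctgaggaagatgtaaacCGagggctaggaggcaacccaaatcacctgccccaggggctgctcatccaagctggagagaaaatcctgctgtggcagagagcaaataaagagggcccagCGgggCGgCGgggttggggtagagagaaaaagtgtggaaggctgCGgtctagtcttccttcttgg
Mest, chr6:30737800-30738099, plus strand: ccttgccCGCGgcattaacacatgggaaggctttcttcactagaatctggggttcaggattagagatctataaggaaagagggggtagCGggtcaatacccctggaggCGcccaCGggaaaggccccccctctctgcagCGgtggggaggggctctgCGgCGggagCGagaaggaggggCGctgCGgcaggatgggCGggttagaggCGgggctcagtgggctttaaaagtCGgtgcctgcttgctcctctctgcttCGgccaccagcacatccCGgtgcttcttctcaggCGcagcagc
Nnat, chr2:157559828-157560127, plus strand: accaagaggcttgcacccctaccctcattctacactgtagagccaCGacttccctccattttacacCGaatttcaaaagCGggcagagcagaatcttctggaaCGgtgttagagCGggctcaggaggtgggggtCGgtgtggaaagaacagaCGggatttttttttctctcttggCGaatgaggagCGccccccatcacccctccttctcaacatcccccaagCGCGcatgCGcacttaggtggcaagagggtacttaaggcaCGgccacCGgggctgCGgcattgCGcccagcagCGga
Zfp629, chr7:127614818-127615117, minus strand: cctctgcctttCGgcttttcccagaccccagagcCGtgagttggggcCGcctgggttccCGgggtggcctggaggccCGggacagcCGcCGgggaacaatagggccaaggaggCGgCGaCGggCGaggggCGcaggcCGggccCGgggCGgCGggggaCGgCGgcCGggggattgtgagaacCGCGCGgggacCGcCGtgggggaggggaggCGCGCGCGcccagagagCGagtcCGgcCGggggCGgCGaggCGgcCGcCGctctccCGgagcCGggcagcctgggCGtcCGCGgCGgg
9630028I04Rik, chr17:27248017-27248316, minus strand: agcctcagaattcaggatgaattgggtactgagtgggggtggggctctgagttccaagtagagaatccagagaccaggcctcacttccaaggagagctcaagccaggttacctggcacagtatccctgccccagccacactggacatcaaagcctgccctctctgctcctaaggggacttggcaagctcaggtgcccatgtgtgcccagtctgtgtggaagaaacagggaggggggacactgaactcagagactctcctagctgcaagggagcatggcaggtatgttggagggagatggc
Gm32719, chr12:20240489-20240788, plus strand: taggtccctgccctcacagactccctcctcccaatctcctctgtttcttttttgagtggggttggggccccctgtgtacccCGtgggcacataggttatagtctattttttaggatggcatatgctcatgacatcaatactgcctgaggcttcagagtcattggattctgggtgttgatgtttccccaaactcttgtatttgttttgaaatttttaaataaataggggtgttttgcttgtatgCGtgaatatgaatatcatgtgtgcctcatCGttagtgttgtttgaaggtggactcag

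The printed windows range in CpG content. The window over Zfp629 holds 42 CpG, the downstream Mest window and the Nnat window 17 each, the upstream Mest window 8, the Gm32719 window 3 and the 9630028I04Rik window 0. Over all 36 windows the median ratio of observed to expected CpG was 0.30, against 0.38 over all 32851 windows of the RefSeq table. A ratio of 0.6 or more was found in 4 of the 36 (11.1%), in a Mest window that starts 3 bases after the second printed one, the Nnat window and 2 windows of Zfp629, against 35.8% of all windows. The letters TGCCGC, searched on both strands, occurred in 6 of the 36 windows (16.7%), against 11.6% of all. These were the Nnat window, the overlapping pair of downstream Mest windows, a pair of overlapping windows of Gm32026 and the window of 1700017L05Rik. CACGTG, an E-box, occurred in 1 window (2.78%), that of Slc22a16, against 7.15% of all. TCCCGC, which is part of the E2F6 site, occurred in 4 (11.1%), at Mest, Zfp629 and 1700017L05Rik, against 20.0%. Most of the 28 genes are long noncoding RNA genes or predicted genes, and a match of letters is a description only.

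Among the broad regions, 3 also hold microRNA genes, and mature RefSeq sequences of 3 of these genes are given below with the seed (bases 2 to 8) in capitals. MicroRNAs guide the silencing of messenger RNAs that pair with this seed.
miR-7217-5p, chr17:27355738-27355762, plus strand: aACUUGUAucuugugagacagaagg
miR-7217-3p, chr17:27355778-27355799, plus strand: uGAGAACCcacaagcaagaaga
miR-675-5p, chr7:142577112-142577133, minus strand: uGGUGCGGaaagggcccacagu
miR-675-3p, chr7:142577078-142577099, minus strand: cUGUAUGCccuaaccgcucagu
miR-6241, chr14:118258659-118258677, plus strand: cACGGCGGcuggaauuccc

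No seed is shared among these 5 sequences. Mir7217 lies in the second broadest of the 373 regions (chr17:27352393-27378816). Its log2 fold change was -0.11 ± 0.04 in the authors' deposited table (FDR 0.342). Mir675, processed from the imprinted noncoding RNA H19, lies in a region that had 0.08 ± 0.07 in that deposited table (FDR 1). The region over Mir6241 (chr14:118252824-118261162) had -0.03 ± 0.09 in the authors' deposited table. None of the 3 was called.

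The 373 regions are 0.546% of all regions, yet they cover 3.90 of the table's 82.5 Mb (4.73%) and hold 6.52% of its summed CPM. Their width had a median of 9614 bp and ran up to 28573 bp. Signal had a median of 166 CPM and ran from 84.0 to 1262 CPM. Wider regions held more reads (Spearman's rho 0.67 across the 373, a description in which points share the same libraries), while signal per kb followed width only weakly (rho 0.13). The broad regions were also denser than regions at large: their median was 16.6 CPM per kb, against 11.3 CPM per kb over all regions. At the width threshold the 3 narrowest members, of 8001, 8001 and 8002 bp, had log2 fold changes of -0.07, -0.25 and -0.13 in the authors' deposited table, and the 3 widest regions left out, of 7997, 7971 and 7971 bp, had -0.05, -0.15 and -0.14. None of these 6 was called, and the values on either side overlap.

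**Figure D1:**
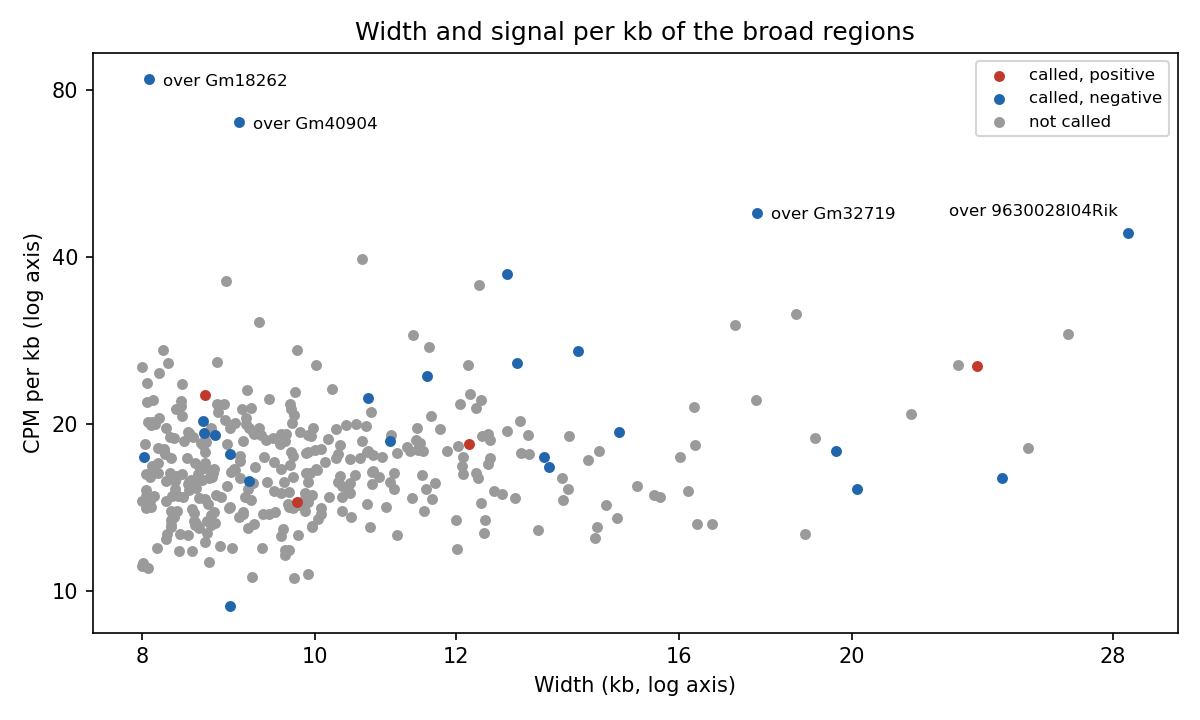
Width of each of the 373 regions (kb, log axis) against its signal per kb (CPM per kb, log axis), with called regions in colour by sign. Density runs from 9.37 to 83.5 CPM per kb. The 4 densest regions, which are labelled, are all called negative in the authors' deposited table. Relative to narrower regions of like signal their changes are positive.

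The region of highest density, over the pseudogene Gm18262 (chr13:12858219-12866286), held 83.5 CPM per kb, and its neighbour over the noncoding RNA gene Gm40904 (chr13:12923754-12932815) held 69.8. They were followed by the region that reaches into the start of Gm32719 (chr12:20223522-20241206) with 48.0 CPM per kb and by the one over the noncoding RNA gene 9630028I04Rik (chr17:27236789-27265362) with 44.2. The last of these is also the widest region and the one with the most signal, 1262 CPM. All 4 were called negative with small changes, which were -0.18 ± 0.04 (FDR 0.00275), -0.17 ± 0.04 (FDR 0.00565), -0.13 ± 0.03 (FDR 0.0305) and -0.16 ± 0.03 (FDR 2.86e-05) in the authors' deposited table. With the median of regions of like signal subtracted, as described below, these 4 changes were -0.04, -0.04, 0 and -0.03. Relative to narrower regions of like signal alone, which are few at this signal, they were 0.04, 0.04, 0.08 and 0.05. Across the broad regions the deposited change hardly followed density (Spearman's rho -0.075, a description). At the other end, the sparsest region (chr3:3000053-3009009, 9.37 CPM per kb) also had the lowest signal, 84.0 CPM, and the second most negative change. The next sparsest regions near Mir101c, Vmn2r-ps61 and Gm35471 held 10.5, 10.6 and 10.7 CPM per kb and were not called, with changes of -0.01, -0.34 and -0.03 in the authors' deposited table.

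Most broad regions differed little between the genotypes, and those that differed were mostly negative. Of the 373, 27 were called in the authors' deposited table (7.24%), against 0.281% of all 68291 regions. Negative calls were 23 (6.17%), against 0.0893% of all regions, and positive calls 4 (1.07%), against 0.192%. On the chromosomes used, 108 of 59583 regions were called (0.181%), 56 positive and 52 negative, the broad regions included. The median log2 fold change was -0.10 (quartiles -0.16 and -0.03), against -0.01 over all regions and -0.03 over those on the chromosomes used. Of the 373, 308 (82.6%) were negative. A change within 0.2 of 0 was found in 315 regions, and 3 lay beyond 0.5 in either direction. Derived standard errors had a median of 0.08, against 0.34 over all regions. The smallest called change, -0.13 at Gm32719 in the authors' deposited table, had an error of 0.03. At an unadjusted p below 0.05, 127 of the 373 (34.0%), 116 of them negative, stood against 4.74% of all regions.

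The share of calls was higher among the wider members. It was 11 of 228 (4.82%) from 8 to 10 kb, 3 of 73 (4.11%) from 10 to 12 kb, 7 of 51 (13.7%) from 12 to 16 kb and 6 of 21 (28.6%) at 16 kb or more. Over the same classes the median derived standard error fell, from 0.078 to 0.070, 0.064 and 0.048. Their median signal rose from 144 to 182, 226 and 388 CPM. The medians of the log2 fold change in these width classes were -0.10, -0.10, -0.10 and -0.11. The signed change thus did not follow width (Spearman's rho -0.003 across the 373, a description), and its size without sign was not compared. Regions of 5 to 8 kb on the same chromosomes had 22 calls of 1076 (2.04%), 12 positive and 10 negative, with a median of -0.09.

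**Figure D2:**
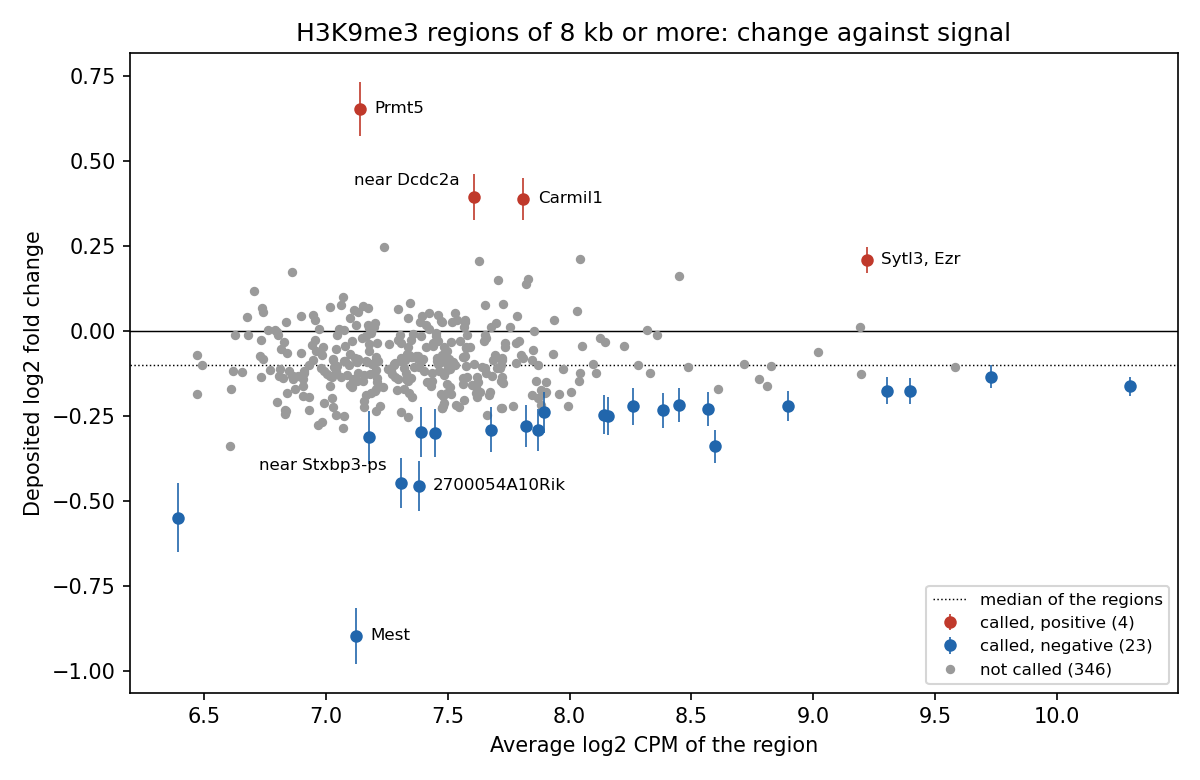
Deposited log2 fold change of each of the 373 regions against its average log2 CPM, with bars of 1 derived standard error on the 27 called regions. Mest at -0.90 and Prmt5 at 0.65 lie farthest from the dotted median of -0.10, and the called regions at a log2 CPM of 8 or more lie between -0.34 and 0.21.

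The call of smallest p was at Mest, a paternally expressed imprinted gene that encodes an enzyme of the hydrolase fold family. The region (chr6:30733159-30741177) covers 51.3% of the gene, with its start and both promoter windows printed above. Its log2 fold change was -0.90 ± 0.08 in the authors' deposited table, with an FDR of 5.75e-24. At 8018 bp wide and 139 CPM it is among the narrowest members, and it was the most negative of the 373.

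Prmt5 had the most positive change. It encodes the arginine methyltransferase that places symmetric dimethylation on histones and splicing proteins and is needed by germ cells and pluripotent cells. The region (chr14:54506315-54516080) covers 86.5% of the gene and runs past the end of the gene with the lower coordinate. Its log2 fold change was 0.65 ± 0.08 in the authors' deposited table (FDR 2.15e-12), at 141 CPM, nearly the signal of the Mest region.

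A pair of adjoining regions lies at the start of the assembled sequence of chromosome 3, the end next to the centromere in mouse chromosomes. The first (chr3:3000053-3009009) had -0.55 ± 0.10 in the authors' deposited table (FDR 0.000132). The second (chr3:3009392-3033662), 383 bp further on and 24270 bp wide, had -0.34 ± 0.05 (FDR 1.1e-08) in that deposited table. The nearest annotated gene, the transfer RNA gene n-TKctt9, is 115831 bp from the second. Both changes were negative, and the difference between them, 0.21 ± 0.11, is under 2 standard errors.

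On chromosomes 17 and 19, 2 further negative changes were of similar size. The region inside the noncoding RNA gene 2700054A10Rik (chr17:13544759-13553424) had -0.46 ± 0.07 in the authors' deposited table (FDR 1.36e-06). A region 70771 bp from the pseudogene Stxbp3-ps (chr19:9477873-9486835) had -0.45 ± 0.07 there (FDR 5.4e-06). Both exceeded the other negative calls outside Mest and the chromosome 3 pair, which lay between -0.31 and -0.13.

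Of the 4 positive calls, 3 others joined Prmt5. Carmil1, a regulator of actin capping protein, contains a region (chr13:24225214-24237409) with 0.39 ± 0.06 in the authors' deposited table (FDR 2.02e-06). On the same chromosome, a region 398 bp from Dcdc2a, a doublecortin domain gene, had the same value of 0.39 ± 0.07 (chr13:25046198-25054875, FDR 1.13e-05) in that deposited table. The region of 23498 bp that spans the neighbouring ends of Sytl3, an effector of Rab27 in vesicle traffic, and Ezr, which encodes ezrin, a linker of membrane and actin, had 0.21 ± 0.04 (chr17:6733090-6756588, FDR 0.000132) in the authors' deposited table. It covers 41.3% of Ezr and 6.23% of Sytl3. The Carmil1 and Dcdc2a regions are the only 2 members within a stretch of chromosome 13 from 22 to 26 Mb, and 25 calls, 2 of them positive, remain without that stretch.

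Gnas, a complex imprinted locus whose main product is a stimulatory G protein subunit, was the other imprinted gene with a call. The region (chr2:174290250-174301263) lies inside Gnas and over the start of its antisense RNA gene Gnasas1. It had -0.29 ± 0.07 in the authors' deposited table (FDR 0.00761). A second region of the chromosome 17 block at 9630028I04Rik (chr17:27269319-27282137) had -0.22 ± 0.04 (FDR 0.000811), and a region at the end of Mup-ps1, a pseudogene of the major urinary protein family (chr4:60029445-60042876), had -0.29 ± 0.06 (FDR 0.00257) in the authors' deposited table. The remaining negative calls of small p lay between genes: near Gm18244 at -0.23 (chr12:3008373-3022412, FDR 0.00325), near Vmn1r-ps2 at -0.23 (chr4:3061568-3074547, FDR 0.00537), near 1700030C10Rik at -0.28 (chr12:20842261-20855791, FDR 0.00589), near Gm19163 at -0.25 (chr13:3424051-3438849, FDR 0.00634) and near Gm4847 at -0.25 (chr1:166574855-166586413, FDR 0.00911), all in the authors' deposited table. These 5 are named by their nearest gene, and their functions are not annotated in the sources used here.

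The change in the table moved with signal, so the broad regions were set beside narrower regions of the same signal on the same chromosomes. Among narrower regions the median log2 fold change fell with signal: it was 0.04 in the band of log2 CPM from 1 to 2, -0.02 from 3 to 4, -0.07 from 5 to 6 and -0.09 from 6 to 6.5. Nearly all broad regions (369) had a log2 CPM of 6.5 or more. There the median was -0.10 for the 369 broad regions and -0.10 for 622 narrower ones. Calls were 26 of 369 (7.05%, 4 positive and 22 negative) among the broad regions and 19 of 622 (3.05%, 10 positive and 9 negative) among the narrower ones. In single bands the order was not steady: 0 of 62 broad and 11 of 499 narrower regions were called at 6.5 to 7, 7 of 169 and 3 of 107 at 7 to 7.5, 6 of 99 and 1 of 9 at 7.5 to 8, and 13 of 39 and 4 of 7 at 8 or more. The broad regions make up 91.7% of the band from 7.5 to 8 and 84.8% of that at 8 or more, where narrower regions to compare with are few.

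**Figure D3:**
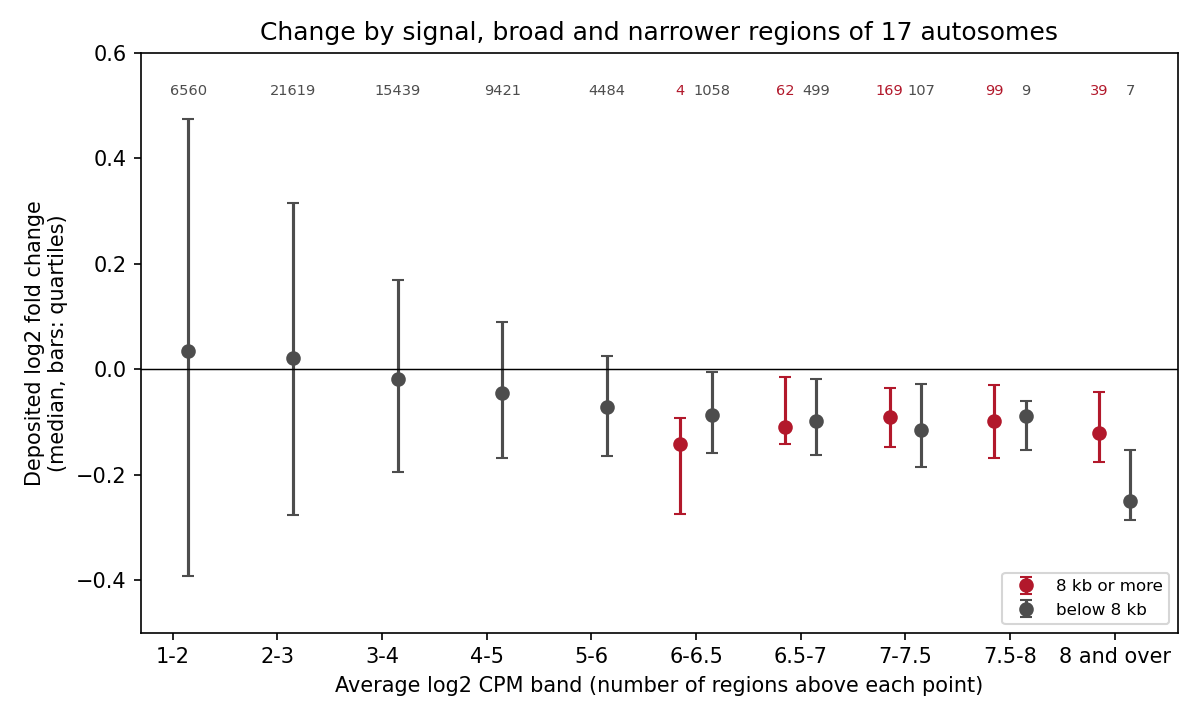
Median deposited log2 fold change (points, with quartiles as bars) by band of average log2 CPM, for regions of 8 kb or more (red) and below 8 kb (grey) on the 17 autosomes used, with the number of regions above each point. Both sets lie near -0.10 from 6.5 to 8, and at 8 or more the 7 narrower regions lie lower, at -0.25, than the 39 broad ones, at -0.12.

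The split of the calls by sign differed between scales. With the p-value taken from a normal approximation, in which each region has the error typical of its signal, 24 of the 373 were called (4 positive and 20 negative), against 0.255% of all regions. When the median of regions of like signal was first subtracted from each log2 fold change, 16 were called, 11 positive and 5 negative, against 0.433% of all regions, and the median of the 373 was 6.2e-05. Relative to narrower regions of like signal alone, 26 were called, 20 positive and 6 negative, against 0.452% of all regions, and the median was 0.024. These splits are limited by their construction. The broad regions make up 61.2% of all regions in the band from 7 to 7.5 and most of those above it, so the first subtraction centres them largely on themselves. Both subtractions used medians in bins of 0.5 log2 CPM, over every chromosome and scaffold other than chromosomes 11 and 16. At a log2 CPM of 8 or more the chromosomes used held only 7 narrower regions, and how many lay elsewhere was not counted. Mest and Prmt5 stayed the most negative and the most positive of the named calls, at -0.80 and 0.75 relative to regions of like signal.

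Most of the broad regions overlapped no coding gene. Their share over coding genes was near that of all regions on these chromosomes, and their share over other genes was higher. An overlap of 1 bp was enough, and the broad regions are far wider (median 9614 bp, against 775 bp). Wider regions touch a gene more easily, and the shares are not adjusted for this. Of the 373, 87 (23.3%) overlapped a protein-coding gene, 72 (19.3%) only another kind of gene and 214 (57.4%) no gene, against 25.3%, 11.2% and 63.5% of all these regions. Negative changes were the majority in each class. Positive changes, called or not, were 27 of 87 (31.0%) over protein-coding genes, 11 of 72 (15.3%) over other genes and 27 of 214 (12.6%) between genes, with medians of -0.07, -0.10 and -0.11. Over all regions on these chromosomes the positive shares were 47.7%, 47.2% and 45.6%. At a log2 CPM of 7 to 7.5 they were 10 of 42 over protein-coding genes and 11 of 92 between genes. Without the chromosome 13 stretch they were 26 of 86 and 26 of 213. Regions of 5 to 8 kb had the same order, 33.9%, 23.7% and 20.6%. Calls numbered 6 over protein-coding genes (3 positive and 3 negative), 7 over other genes (all negative) and 14 between genes (1 positive and 13 negative). These counts are a description, since neighbouring regions are not independent.

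**Figure D4:**
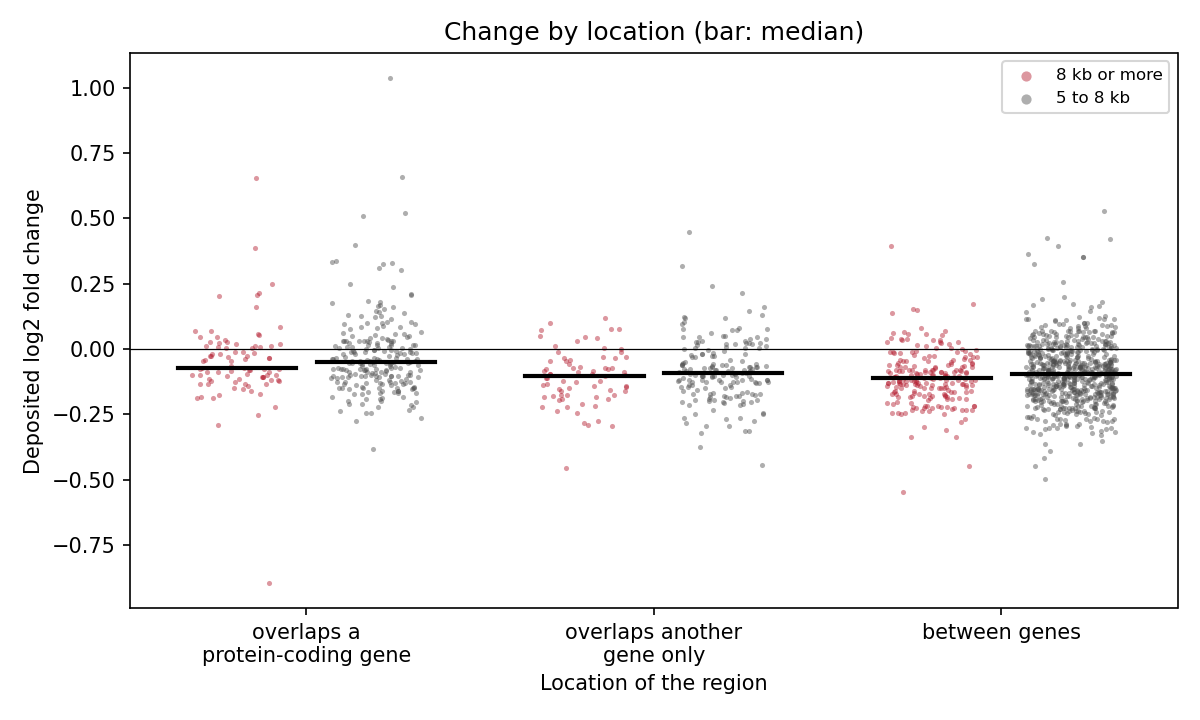
Deposited log2 fold change of regions of 8 kb or more (red, left of each pair) and of 5 to 8 kb (grey) by where they lie, with black bars at the medians. The medians of the broad regions are -0.07 over protein-coding genes, -0.10 over other genes and -0.11 between genes.

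Of the broad regions over protein-coding genes, 60 lay wholly inside a gene and 26 ran across a gene's end. A whole coding gene was covered at 3 loci. These were Nefm, which encodes the medium neurofilament subunit (-0.10, FDR 1), Nnat, an imprinted gene of a small membrane protein (-0.04, FDR 1), and Scgb1b27, a secretoglobin gene (-0.11, FDR 0.958), all uncalled in the authors' deposited table. The largest uncalled positive changes inside genes were 0.25 ± 0.08 in Arl15 (FDR 0.192), an ARF-like small GTPase, 0.21 ± 0.06 in Lrrc8d (FDR 0.0613), a subunit of the volume-regulated anion channel, 0.20 ± 0.07 in Slc38a1 (FDR 0.282), a glutamine transporter, and 0.16 ± 0.05 in Glb1 (FDR 0.175), the lysosomal beta-galactosidase, in the authors' deposited table. These 4 genes were chosen after their values were seen. Regions between genes lay a median of 12676.5 bp from the nearest one, and 13 lay over 100 kb away. Among genes of other kinds, 45 broad regions overlapped a long noncoding RNA gene and 35 a pseudogene.

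Imprinted genes held 6 of the broad regions within 5 kb, of 111 regions near that list on the chromosomes used. Counts for the other lists below are from the same chromosomes. They were called at Mest and Gnas, both negative, while the other 4 of this list had small changes in the authors' deposited table. Control regions over 5 kb from a listed gene were not counted. The region at Peg13, a paternally expressed noncoding RNA gene inside Trappc9 (chr15:72802033-72815916), had -0.12 ± 0.06 (FDR 0.991) there. At H19, the maternally expressed noncoding RNA gene that shares its control region with Igf2 (chr7:142576012-142586286), the deposited value was 0.08 ± 0.07 in the authors' deposited table. The region over Nnat and its host gene Blcap (chr2:157555729-157565502) had -0.04 ± 0.06 in that deposited table. The region inside Igf2r that covers the start of its antisense RNA gene Airn (chr17:12738793-12748864) had -0.02 ± 0.08 in the authors' deposited table. The FDR of the last 3 was 1. The median of the 6 was -0.08, against -0.06 over the 111 regions, of which 5 were called. Mest and Nnat, which both have a TGCCGC match and 17 CpG in a window printed above, had changes of -0.90 and -0.04 in that deposited table.

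Zinc finger genes, taken by symbol, held 6 of the broad regions of 518 regions near the list, and none was called in the authors' deposited table, against 6 of the 518 (too few to tell the shares apart). Their median was -0.09, against -0.02 over the 518. Zfp407 had -0.18 ± 0.07, Zfp982 -0.10 ± 0.05, Zfp629 -0.10 ± 0.06 and Zfp932 -0.09 ± 0.07, while Zfp808 had 0.02 ± 0.07 and Zfp934 -0.02 ± 0.06, in the authors' deposited table. The Zfp808 and Zfp934 regions lie inside their genes in a cluster on chromosome 13.

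Gene families that lie in tandem arrays held 7 of the broad regions of 580, again with no call, against 1 of the 580. All 7 were negative in the authors' deposited table with a median of -0.11, against -0.08 over the 580. Among them were Defb10, a defensin gene, at -0.23 ± 0.07 (FDR 0.118), H2-Ob, a class II histocompatibility gene, at -0.16 ± 0.07 (FDR 0.852), and Mup21, a major urinary protein gene, at -0.11 ± 0.06 (FDR 1), in that deposited table. Vomeronasal receptor genes and pseudogenes held 5 of 443 with no call, against 4 of the 443, with changes from -0.34 ± 0.10 near Vmn2r-ps61 (FDR 0.0992) to 0.10 ± 0.08 near Vmn1r88 (FDR 1) in the authors' deposited table. The region near the olfactory receptor pseudogene Olfr718-ps1, the 1 of 424 on that list, had 0.08 ± 0.08 there. Tdpoz3, a gene of the 2-cell embryo, had the 1 broad region of 26 near its list, with -0.23 ± 0.07 (FDR 0.218) in the authors' deposited table. At an unadjusted p below 0.05, 2 of the 6 zinc finger regions, 3 of the 7 tandem family regions, 1 of the 5 vomeronasal regions and the Tdpoz3 region would pass. No broad region lay within 5 kb of a listed gene of germline and meiosis (71 regions), H3K9 methylation factors (16), pluripotency (5) or early lineages (6). The same held for fibroblasts (14), clustered protocadherins taken by symbol (20), histones (8) and homeobox genes (25). The protocadherin list leaves out Gm37013, Gm38666 and Gm38667 on chromosome 18, so it does not show that no broad region lies in that cluster. A broad region inside these genes (chr18:37234652-37242870) had -0.17 ± 0.08 (FDR 0.918) in the authors' deposited table.

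Some calls lay close together along the chromosomes. With regions at most 100 kb apart counted as a cluster, the 373 formed 321 groups, in which 291 regions stood alone and 29 lay in 6 clusters of 4 or more. The 27 calls fell in 20 groups, and 13 called regions had another called region in their group. Of the 27 called regions, 16 had another broad region in their group, called or not, against 66 of the 346 that were not called. The densest cluster, of 6 regions on chromosome 17 (27236789 to 27389724), spans 153 kb, of which 70.4% is covered, and holds 3759 CPM. It includes 9630028I04Rik, Gm10505 and Mir7217. Its first 5 regions were negative, from -0.22 to -0.11 with 2 called, and its last was positive at 0.15 ± 0.06 (FDR 0.765) in the authors' deposited table. On chromosome 10 a cluster of 5 (83376276 to 83481112) held 3 negative and 2 positive regions and no call.

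**Figure D5:**
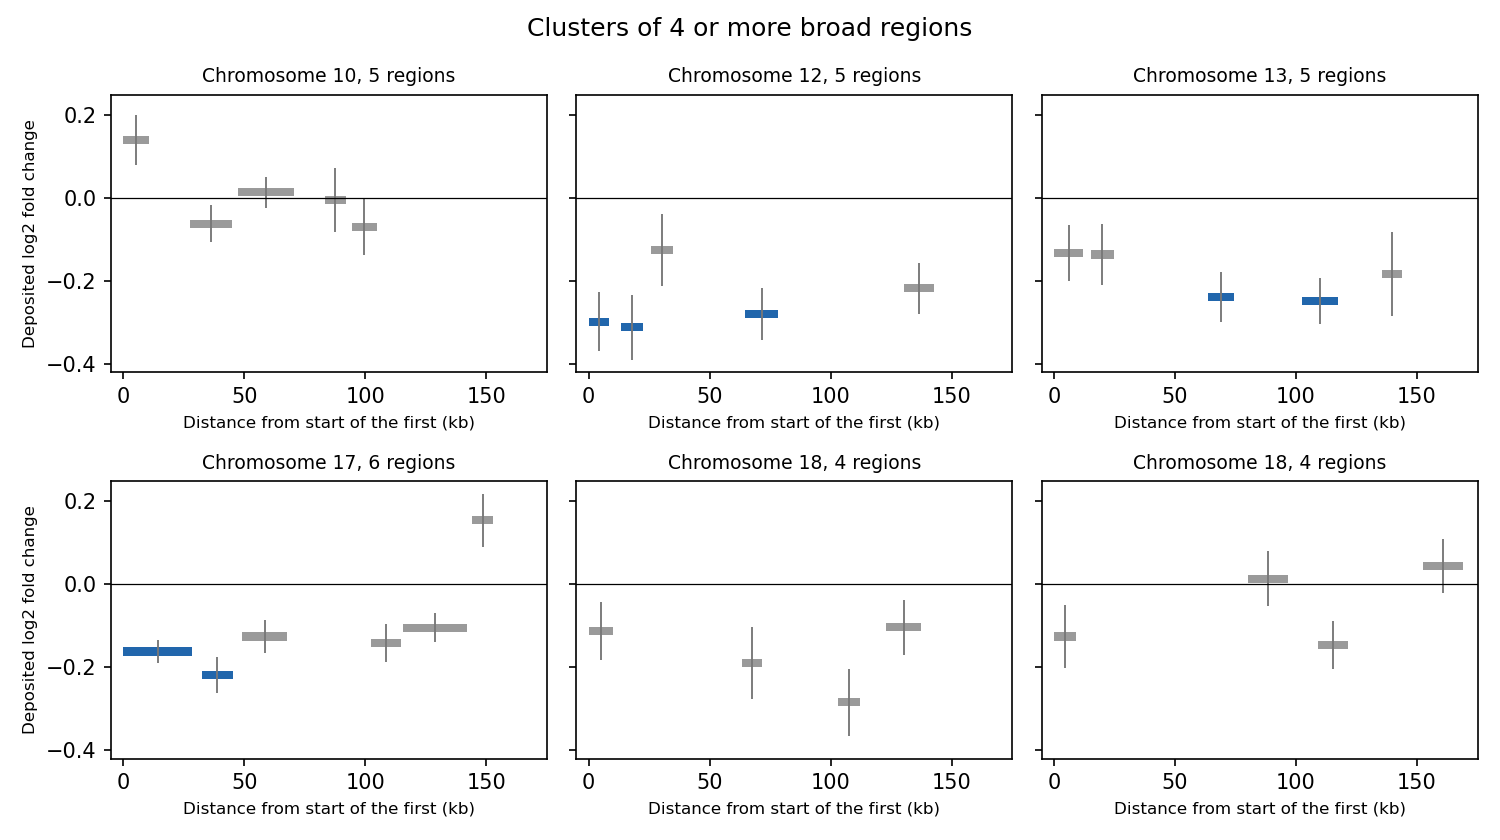
Deposited log2 fold change of the regions in the 6 clusters of 4 or more, against the distance from the start of the first region (kb). Each horizontal bar spans 1 region, vertical lines are 1 derived standard error and blue marks called regions. The chromosome 12 and 13 clusters are negative throughout, and the last region of the chromosome 17 cluster is positive at 0.15.

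Chromosomes 12 and 13 had the most calls, 7 among 27 broad regions (25.9%) and 6 among 23 (26.1%), against 0.408% and 0.654% of all regions on them. Of the 27 on chromosome 12, 26 were negative, with a median of -0.18. From 20 to 22 Mb chromosome 12 held 10 broad regions, all negative, from -0.31 to -0.13 with a median of -0.24 and 6 calls in the authors' deposited table. Without chromosome 12, 20 calls were left. The first 5 Mb of the chromosomes, next to the centromere, held 26 broad regions (6.97% of the 373, against 2.84% of all regions on these chromosomes). Of these, 25 were negative and 7 called, with a median of -0.13. Without them 20 calls were left, 4 positive and 16 negative. Each of the 17 chromosomes had a lower median among its broad regions than among its narrower ones. These sets were not matched for signal, with a median log2 CPM of 7.38 for broad and 3.08 for narrower regions. At 6.5 or more, as given above, both medians of the change were -0.10. The difference was smallest on chromosome 19, at -0.004 with 3 broad regions.

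Regions next to each other mostly shared their sign, as most pairs of the 373 would, since 82.6% of them were negative. Of 12 pairs of broad regions under 5 kb apart, 10 had the same sign, and the median difference in log2 fold change was 0.07. The 1 pair that differed by over 2 derived standard errors was the Mir7217 region and the last region of the chromosome 17 cluster, by 0.26 ± 0.07. The narrower regions around a broad one were compared in the same way, taking those within 50 kb with a log2 CPM of 4 or more. At 176 broad regions with 3 or more such neighbours, the change correlated with the neighbours' median (Pearson's r 0.43, Spearman's rho 0.46), a description in which regions share libraries and chromosomes. Of 19 called regions with 3 or more neighbours, all negative, 17 had the same sign as their neighbours' median, though most of them had neighbours of both signs. The exceptions were the 2 called regions of the chromosome 17 cluster, whose neighbours had medians of 0.11 and 0.22. Narrower regions on the chromosomes used were mostly negative in any case. The share was 59.2% at a log2 CPM of 4 to 5 and 79.7% at 6.5 or more.

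Several of the strongest calls had few narrower regions around them. Mest, Prmt5, Carmil1 and the Sytl3 and Ezr region had 0 such neighbours within 50 kb. The Dcdc2a region had 2, both positive, with a median of 0.54 in the authors' deposited table. The Gnas region also had 2, both positive with a median of 0.42, and so of the opposite sign to its own -0.29. These neighbours were compared as values only, and no test of the difference was possible without values of single libraries.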

How the data were processed

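The authors deposited 1 table that compares the genotypes over 68291 regions of mm10. Its values are log2 fold changes, average log2 CPM, p-values and adjusted p-values (FDR), per the file headers. Named without role or order in the submitters' processing notes are bedtools 2.25.0, HOMER 4.8, Bowtie2 2.2.6 and edgeR, the last with no version. The sources used here do not give how regions were defined, which libraries entered or whether coordinates count from 0 or 1. Reads per library were not analysed here, and no count test could be run, since the deposited table has no values of single libraries. Nothing in the labels says that the libraries came from separate cultures, so p-values may measure technical spread.

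Values were computed with Python 3.11.15, pandas 2.3.3, NumPy 2.4.6 and SciPy 1.17.1. To derive a standard error, the size of the log2 fold change was divided by the normal deviate that matches its 2-sided deposited p-value. This was done for the 252 of the 373 regions with a deviate of 1 or more, and the others took the median error in their bin of log2 CPM (width 0.5). The deposited FDR differed by at most 3.2e-05 from one recomputed by the Benjamini-Hochberg method, and both gave 192 regions below 0.05. The scripts were tested on simulated data. Regions were set against 49997 RefSeq genes (GRCm38.p6); exons, introns and repeats were not analysed here, and 1 microRNA gene is not reported here.

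The broad regions and gene lists were chosen with earlier results of these data known. Regions were named by rule: the 10 broadest, the 20 called regions of smallest p, the 4 highest and 4 lowest in signal and in density, up to 4 of smallest p per gene list, and 3 on each side of the width threshold. Members beyond that rule, in whole lists, were named after their values were seen. Alternatives changed the FDR threshold, the adjustment, the width threshold, the chromosomes, the merging of neighbours, the distance to genes and the signal scale.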

Additional observations from a re-analysis of the deposited data

How the results depend on the processing

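The 27 calls became 11 under Holm adjustment (4 positive and 7 negative), 16 at a width of 10000 bp or more, 44 at 6000 bp or more (15 positive and 29 negative of 894 regions) and 16 relative to regions of like signal. Under the other alternatives the count lay between 20 and 38: 20 at an FDR below 0.01, 38 when adjusted over regions of 1000 bp or more, 26 over the autosomes used, 36 on all chromosomes and scaffolds, and 24 with neighbours within 5000 bp counted once. The median of -0.10 was 6.2e-05 relative to regions of like signal and 0.024 relative to narrower ones, and lay between -0.10 and -0.08 under the other alternatives. Counting genes by overlap alone, the members went to 0 for the vomeronasal, olfactory and 2-cell lists and to 3 for the tandem families, against 6 imprinted and 5 zinc finger members. Protein-coding overlap was 87, against 120 within 5000 bp. Of the 20 called regions of smallest p, none changed sign relative to regions of like signal, and 19 moved by more than 1 derived standard error. Among these 20, 6 of the negative calls turned positive relative to narrower regions of like signal. They were the regions at 9630028I04Rik (27236789) at 0.053, Gm18262 at 0.038, Gm40904 at 0.040, Vmn1r-ps2 at 0.030, Gm4847 at 0.018 and Gm19163 at 0.014. Negative calls outside these 20 also turned positive, among them Gm32719 at 0.080, Gm11787 at 0.046 and Gm4036 at 0.042. All 6 among the 20 have a log2 CPM of 8 or more, where only 7 narrower regions lay on the chromosomes used. That scale splits them into bins of 0.5 and adds regions of chromosome X, chromosome Y and scaffolds, if any. The cause of these moves was not tested, beyond what the alternatives set by construction: fewer regions, changed thresholds, and a scale of like signal that the broad regions largely define above a log2 CPM of 7. The settings without chromosome 12, without the first 5 Mb or without chromosome 13 from 22 to 26 Mb, the normal approximations and the scale of narrower regions, single regions included, were chosen after seeing the data. No paired analysis was possible because the table holds no values of single libraries, and leaving out replicates was not run for the same reason.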

Other observations

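The 46 regions of 8 kb or more outside the chromosomes used differed in sign by chromosome in the authors' deposited table. On chromosome 11, all 24 were positive, with a median of 0.21 and 4 called. On chromosome 16, 15 of 16 were positive, with a median of 0.18, and 3 were called, 2 positive and 1 negative. On chromosome X, all 3 were negative and 1 was called. These are values with no test, set beside a median of -0.10 and 308 negative of 373 on the other autosomes.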
